A study of Mus musculus with 15 samples.

Results

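The ventral striatum of the 8 wild-type (WT) mice of the study was described on its own, from 4 males and 4 females out of 15 mice in the deposited table. The mice were chosen by genotype label alone, and no measured value was used to choose them. The WT mice were C57BL/6J, carried no transgene or treatment and were 2 to 3 months old. Tissue was collected after the behavioral analyses, under an overdose of isoflurane. Which tests each of these mice had done is not given. The region was microdissected from both hemispheres and pooled within each mouse, and each mouse gave 1 RNA library. The other 7 mice in the table were *Fmr1* KO mice (3 males and 4 females) of the same strain and are not compared here. The labels do not place a mouse in a cohort, a litter or a dissection day, so the spread between mice includes any such difference.

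The ventral striatum contains the nucleus accumbens, where dopamine from the midbrain meets glutamate from cortex, hippocampus, amygdala and thalamus. Most of its neurons are inhibitory projection neurons of a pair of classes. One class carries D1 dopamine receptors, makes dynorphin and substance P, and can be excited by dopamine, and the other carries D2 dopamine and A2a adenosine receptors and makes enkephalin. Cholinergic and GABAergic interneurons are few. Septum, pallidum, cortex and the lateral ventricle lie beside the region.

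The authors deposited their expression values after a regularized log transform (rlog), a log2 scale that is corrected for library size and pulls noisy genes toward their own mean. Longer transcripts give more reads at equal copy number, so the levels of different genes were compared by a length-adjusted level. This is the rlog minus log2 of the gene's exonic length in kb. Orders by plain rlog are also given, are named as such, and are not corrected for length. The table gave 24982 gene symbols, of which 20223 varied and 4759 were listed at 0 in every WT mouse. In 15256 genes the mean rlog reached 3 or more, the minimum used throughout, and 15147 of these had an exonic length. The median of their mean rlog was 8.95 and the median length-adjusted level was 6.81. The depth of each mouse is unknown because no read counts were used. WT male 3 and WT female 1 stood apart from the other 6 mice on the largest axis of spread. A principal component analysis of the 1000 autosomal genes with the largest SDs put 43.5% of the variance on its first axis, where these mice lay at 8.37 and 10.48, and the other 6 between -4.63 and 1.94. Results that rest on them are given with and without them.

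The labelled tissue was checked against marker genes. All 14 listed markers of striatal projection neurons were measured, with a median of their mean rlog of 13.83 and a median length-adjusted level of 11.33. Pde10a, the phosphodiesterase of these neurons, had the highest rlog of the list (14.61 ± 0.33, SD, n = 8), and Ppp1r1b, which codes for the dopamine-regulated phosphatase inhibitor DARPP-32, was at 14.02 ± 0.24. Markers of neighboring regions were present at lower levels, with median length-adjusted levels of 5.79 for cortical excitatory neurons, 6.26 for thalamic and hypothalamic neurons and 5.57 for septum and pallidum. Slc6a3, the dopamine transporter of midbrain neurons, lay near the floor at a mean rlog of 3.54. It was the lowest of the 4 dopaminergic markers that passed the minimum, whose median was 6.98 and highest 7.97. Hcrt, the orexin precursor of the lateral hypothalamus, was at 0.24. The other 11 markers of the thalamic and hypothalamic list passed the minimum, with a median of 7.89. The median level of choroid plexus markers was 3.65, and of the 5 blood genes Alas2 had a mean rlog of 5.76 while the 4 hemoglobin genes were listed at 0 in every mouse, which is not read as an absence of blood.

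Transcripts of neurons, oligodendrocytes and astrocytes held the top of the table. No single transcript took a large part of it. Meg3, the highest by rlog, made up 0.609 ± 0.064% of the summed linear values, the 10 highest genes 2.75 ± 0.10%, the 100 highest 12.3 ± 0.3% and the 1000 highest 43.5 ± 0.6%. These sums took plain rlog with no length adjustment. Meg3 is a long noncoding RNA made from the maternal allele of an imprinted locus, and its rlog was 16.54 in the lowest mouse, 17.04 in the highest and 16.88 ± 0.16 on average. Kif5a, a kinesin motor of axonal transport, followed at 16.11 ± 0.12, and Slc1a2, the glutamate transporter of astrocytes, at 16.05 ± 0.12. Snhg11, a small nucleolar RNA host gene that the annotation lists as protein coding, was at 15.63 ± 0.10. The myelin genes Mbp (15.38 ± 0.19) and Mobp (14.81 ± 0.17) stood among the 20 highest by rlog. So did the calcium signaling genes Ppp3ca (15.18 ± 0.19), Camk2a (15.15 ± 0.13) and Prkcb (15.00 ± 0.22), which code for the catalytic subunit of calcineurin and a pair of kinases. The cytoskeletal genes Map2 (15.09 ± 0.08) and Map1a (15.02 ± 0.10) and the release machinery genes Snap25 (14.89 ± 0.06) and Cplx2 (14.96 ± 0.15) completed the neuronal part.

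Per length the order changed, and short transcripts moved up. Calm2 had the highest length-adjusted level, 13.67 in the lowest mouse, 13.80 at the median and 13.98 in the highest. Sparcl1, a secreted matrix protein of astrocytes, followed with 13.48, 13.66 and 13.83. Next came Penk, the precursor of the enkephalins, with 13.30, 13.62 and 13.90, so a neuropeptide precursor stood just behind them at rank 3. Calm2 was above Penk in all 8 mice and above Sparcl1 in 7 of 8, while the order of Sparcl1 and Penk differed between mice. Cpe, the carboxypeptidase that trims peptide precursors, came next at a mean level of 13.41. Then followed the chaperone Hsp90ab1 (13.30), Kif5a (13.30), the translation factor Eef1a1 (13.26), the selenoprotein Selenow (13.15) and Glul (12.92), the glutamine synthetase of astrocytes. The lysosomal precursor Psap (12.88), Eef1a2 (12.84), Ndrg4 (12.79), the calmodulin regulator Pcp4 (12.77), Calm3 (12.72), the sodium pump subunit Atp1b1 (12.72), Meg3 (12.70), Cplx2 (12.66) and the desaturase Scd2 (12.65) also stood among the 20. Of the 20 highest by length-adjusted level, 10 were also among the 20 highest by rlog, and 98 of the 100 highest levels were protein coding. How reads were assigned between near-identical copies is not given in the sources used here, so the levels of Calm2, Calm3, Hsp90ab1 and Eef1a1, which have close paralogs or processed copies, are uncertain. Without WT male 3 and WT female 1, 98 of the 100 highest levels remained among the 100.

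**Figure D1:**
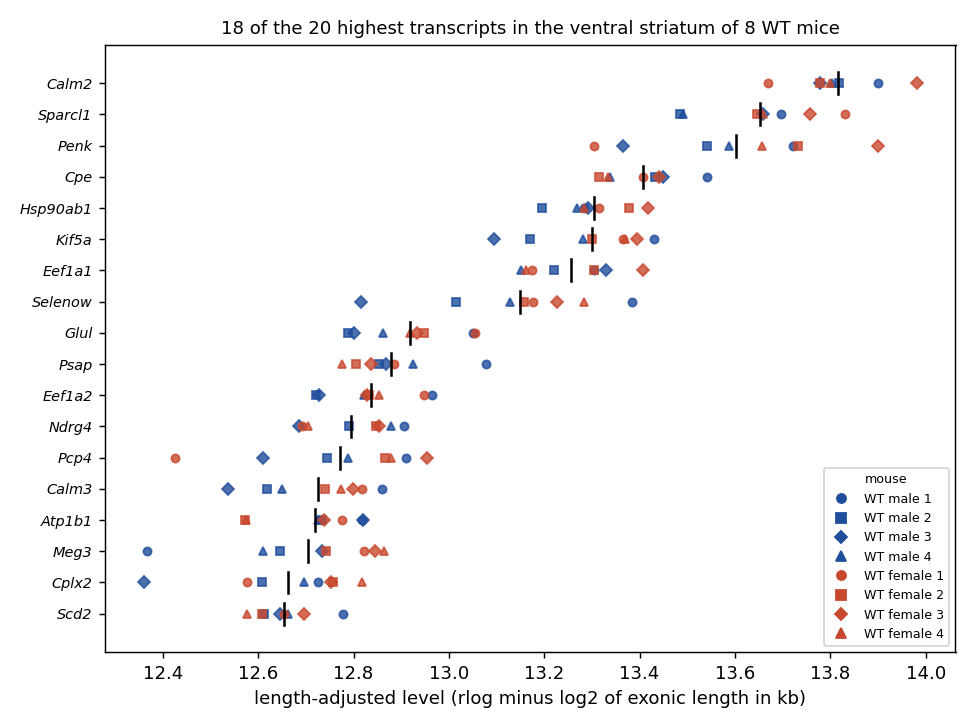
Length-adjusted level (rlog minus log2 of the exonic length in kb, horizontal axis) of 18 of the 20 highest transcripts, with 1 point per WT mouse (blue males, red females) and a black bar at the mean. Calm2, Sparcl1 and Penk lay between 13.30 and 13.98 with overlapping ranges, and Pcp4 was lowest in WT female 1.

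The bases before the annotated start of Meg3 are shown because this transcript was the highest by rlog, although it ranked 18 by length-adjusted level. The RefSeq promoter table for GRCm38.p6 places them at chr12:109540876-109540995 on the plus strand. Capitals mark the cAMP response element TGACGTCA (CRE, a palindrome), which begins at -57 from the start, and a pair of overlapping matches to the TATA box letters TATAAA, which begin at -29 on the reverse strand and at -25 on the forward strand.

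Meg3: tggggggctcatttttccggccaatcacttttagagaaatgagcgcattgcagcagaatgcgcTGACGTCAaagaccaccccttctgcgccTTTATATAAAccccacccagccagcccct

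Both motifs were searched on both strands in the 250 bases before the start. TATAAA was found in 13% of 27025 listed promoters, in 6.52% of the 11922 listed for genes above the minimum, and in 15.5% of the 71 listed among the 100 highest levels. TGACGTCA was found in 1.62%, 2.69% and 5.63% of the same sets. A match describes these letters and shows no binding.

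Receptors, ion channels and peptides were then compared within families, since these genes carry the signals for which the region is studied. The list held 94 families with 505 genes, of which 496 varied in the table, 9 were listed at 0 in every mouse, and 405 passed the minimum. A member's share is its part of the family's summed linear length-adjusted level in 1 mouse. In 93 families at least 2 members had a value, and the highest member was the same gene in all 8 mice in 75 of them (38 of 46 receptor, 26 of 32 channel and 11 of 15 peptide families). In 46 families its share was over 50% in every mouse. The first and second members were picked from the same values that are given, so no test applies. Shares are means ± SD over the 8 mice. Members near the floor are lifted by the rlog transform, so their shares are not exact amounts. Without WT male 3 and WT female 1, 92 of the 93 families kept the same highest member, 83 kept it when the longest transcript set the length, and 76 on plain rlog.

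Dopamine receptors were nearly balanced between the 2 classes of projection neuron. Drd2 had a length-adjusted level of 10.17 in the lowest mouse, 10.65 at the median and 11.0 in the highest, and Drd1 had 9.89, 10.58 and 10.66. The share of Drd2 was 51.8 ± 3.1% and that of Drd1 46.0 ± 3.1%. Drd2 was the higher in 6 of 8 mice, with the ranges of the levels overlapping, and on plain rlog the order turned (54.9% for Drd1 against 43.4% for Drd2). Drd3, the D3 receptor of the ventral striatum, held 1.2 ± 0.3% and Drd5 1.0 ± 0.2%.

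Among receptors for other modulators, those of projection neurons led. Chrm4, an inhibitory muscarinic receptor of D1 neurons, made 65.4 ± 2.2% of its family and Chrm1 27.7 ± 1.4%, and this order turned on plain rlog (30.3% and 57.7%). Adora2a, the A2a receptor of D2 neurons, held 55.4 ± 4.4% of the adenosine receptors and Adora1 42.9 ± 4.2%. Adora2a was the higher in 7 of 8 mice, WT female 1 being the exception, and on plain rlog Adora1 came first (58.8%). Hrh3, the inhibitory histamine receptor, held 81.8 ± 3.0%. Htr2c, a Gq-coupled serotonin receptor, led 12 serotonin receptors with 37.8 ± 1.5%, followed by Htr1d with 13.9 ± 2.3%. Adra2c led the alpha adrenergic receptors with 53.1 ± 5.5%. Its share was 43.2% in WT female 1 and 45.5% in WT male 3, and between 54.3% and 57.4% in the other 6. Adrb1 led the beta adrenergic receptors with 72.1 ± 1.8%.

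The opioid receptors had no member above 50% in all mice. Oprl1, the nociceptin receptor, was highest in all 8 mice, with a share of 46.1 ± 7.3%. It lay at 51.5%, 55.6% and 56.9% in WT male 1, WT male 3 and WT female 1, and between 38.3% and 42.3% in the other 5 mice. The delta receptor Oprd1 held 28.5 ± 4.8%, the kappa receptor Oprk1 22.1 ± 3.2% and the mu receptor Oprm1 3.2 ± 0.4%. These shares turned on the length of each gene. With the longest transcript as length Oprm1 held 7.8% and Oprk1 31.3%, and on plain rlog Oprk1 was first with 39.1%. Cnr1, the cannabinoid receptor of nerve terminals, made 99.7 ± 0.06% of its family at a level of 9.57, against 1.13 for Cnr2.

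Among orphan receptors, Gpr6, a constitutively active receptor of D2 neurons, held 63.4 ± 3.4% against 32.2 ± 2.9% for Gpr12. Gpr52, also of D2 neurons, had no exonic length and entered no share, and its rlog was 9.03 ± 0.28.

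Peptide receptors ran at lower levels, and most families had a clear first member. The substance P receptor Tacr1 (67.8 ± 4.1%) stood above the neurokinin B receptor Tacr3 (31.7 ± 4.1%). Crhr1 held 87.7 ± 2.4% of the corticotropin-releasing hormone receptors, Galr1 96.9 ± 0.3% of the galanin receptors, Cckbr 91.7 ± 2.6% of the cholecystokinin receptors and Ntsr2, an astrocytic neurotensin receptor, 95.0 ± 0.7% against 5.0 ± 0.7% for Ntsr1. The PACAP receptor Adcyap1r1 held 86.0 ± 2.5% of its family. Oxtr held 78.8 ± 2.2% and Avpr1a 20.8 ± 2.2% of the oxytocin and vasopressin receptors, at levels of 5.28 and 3.36. Mc4r (54.4 ± 2.4%) was ahead of Mc3r (41.6 ± 2.4%) in all 8 mice. No clear first member was found in 3 families. Npy2r and Npy1r held 40.7 ± 5.5% and 39.6 ± 3.8% of the neuropeptide Y receptors, and Npy1r came first without WT male 3. Sstr1 and Sstr2 held 37.2 ± 5.0% and 29.6 ± 3.8% of the somatostatin receptors, and Hcrtr2 and Hcrtr1 54.7 ± 3.1% and 45.3 ± 3.1% of the orexin receptors.

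Glutamate receptors were led by Gria1, Grin1, Grik5 and Grm5. Gria1, an AMPA receptor subunit, had a level of 11.20 and a share of 48.8 ± 1.6%, and Gria2, the subunit that makes these receptors impermeable to calcium, 28.6 ± 1.1%. Grin1, the obligatory NMDA receptor subunit, held 48.4 ± 2.0%, Grin2b 28.1 ± 3.7% and Grin2a 6.2 ± 0.6%. The share of Grin2b was below that of Grin1 in every mouse. On plain rlog the long transcripts Gria2 (47.9%) and Grin2b (49.6%) came first, and Grik2 (40.5%) passed Grik5. Of the kainate receptor subunits Grik5 held 41.5 ± 3.7%. Grm5, the postsynaptic group I metabotropic receptor, held 37.3 ± 1.7% and Grm3, which astrocytes also use, 30.7 ± 1.5%, with Grm5 ahead in all 8 mice by 0.28 ± 0.12 on the log2 scale. Grid1 held 88.4 ± 0.5% of the delta receptors.

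GABA receptors were mixed. Gabbr1 held 80.1 ± 2.1% of the GABA-B subunits, which work as a dimer with Gabbr2 (19.9 ± 2.1%). Gabra4, a subunit of tonic inhibition in projection neurons, held 23.5 ± 3.6% of the GABA-A alpha subunits, and Gabrb2 held 48.0 ± 2.2% of the beta subunits. Gabrd, the extrasynaptic subunit, held 41.5 ± 5.9% of the gamma, delta and other subunits and was highest in 6 of 8 mice. Another member came first on plain rlog and with the longest transcript as length. Gabrd held 30.5% in WT male 3 and 34.2% in WT female 1 and between 42.4% and 47.1% in the other 6. Glrb held 80.9 ± 3.5% of the glycine receptor subunits and Glra2 17.4 ± 3.4%. Chrna4 (57.7 ± 1.5%) and Chrnb2 (93.7 ± 0.5%), which assemble into the common brain nicotinic receptor, led their families in all 8 mice.

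**Figure D2:**
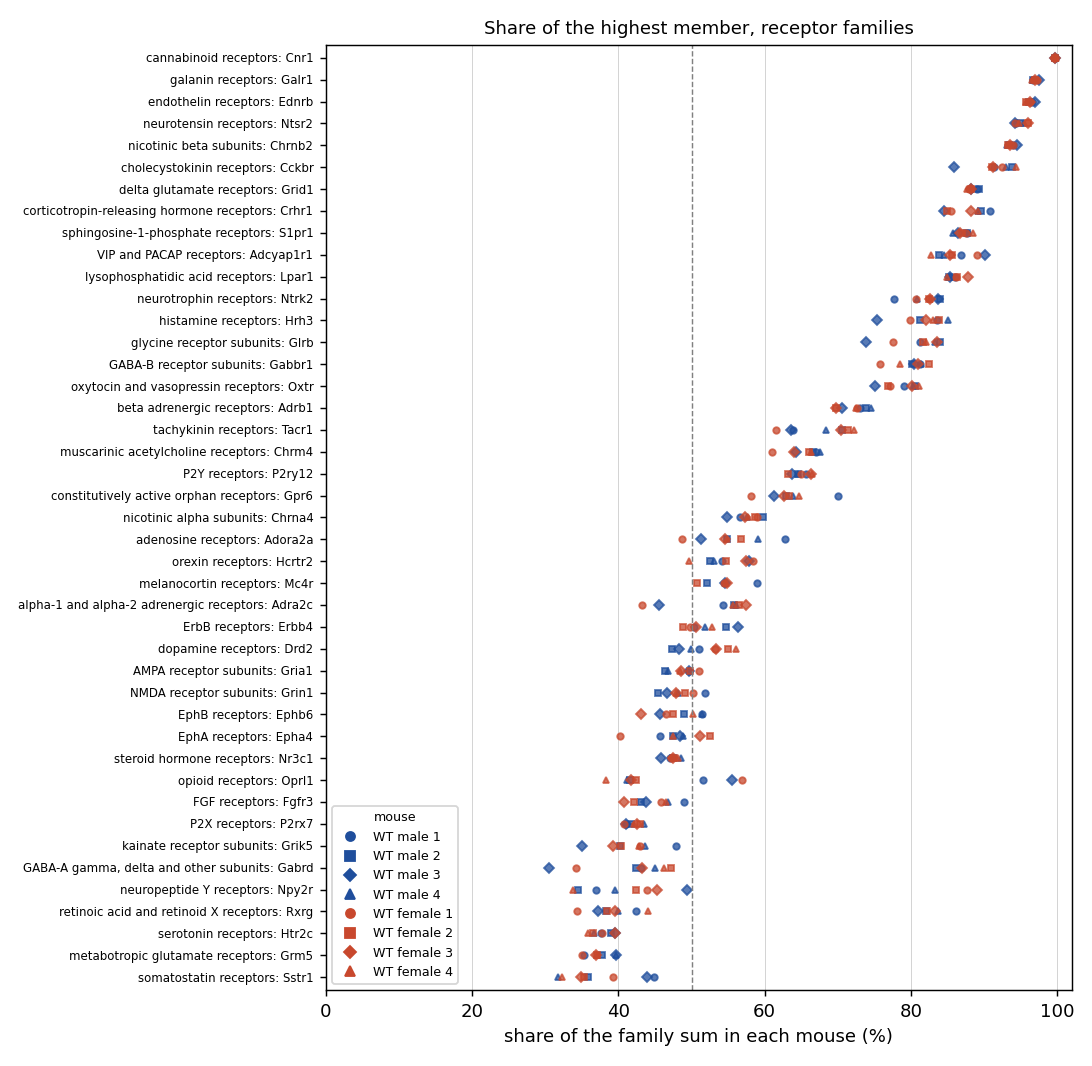
Share of the family sum held by the highest member in 43 of 46 receptor families (horizontal axis, %), with 1 point per WT mouse (blue males, red females) and a dashed line at 50%. The shares ran from 99.7% for Cnr1 to 37.2% for Sstr1, and Oprl1, Adra2c and Gabrd showed WT male 3 and WT female 1 together at one end.

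Receptors of glia and growth factors had steady shares. P2ry12, the microglial purine receptor, held 64.9 ± 1.2% of the P2Y receptors and P2rx7 42.0 ± 1.0% of the P2X receptors, where the longest transcript put P2rx4 first. S1pr1 held 87.2 ± 0.9%, Lpar1 85.9 ± 0.9% and Ednrb, the endothelin receptor of astrocytes, 96.2 ± 0.4% of their families. Ntrk2, the BDNF receptor, held 81.8 ± 2.0% of the neurotrophin receptors, Erbb4 51.9 ± 2.6% of the ErbB receptors, Fgfr3 44.7 ± 2.7% of the FGF receptors and Epha4 47.7 ± 3.7% of the EphA receptors. Ephb6 (48.1 ± 2.9%) and Ephb1 (40.1 ± 2.7%) changed order with the longest transcript. Among nuclear receptors, Nr3c1, the glucocorticoid receptor, held 47.4 ± 0.8% against 29.5 ± 1.1% for Nr3c2, the mineralocorticoid receptor. Rxrg (39.3 ± 3.0%) and Rarb (26.0 ± 3.1%), retinoid receptors that mark projection neurons, led their group, and Rarb came first on plain rlog and with the longest transcript.

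Voltage-gated channels showed few dominant genes among the pore-forming subunits of sodium and calcium channels. Scn2a held 36.8 ± 1.25%, Scn8a 28.2 ± 1.8% and Scn1a 19.7 ± 1.3% of 9 sodium channel alpha subunits. The beta subunit Scn4b, which speeds the return of current after an action potential, reached a level of 11.94 and 48.4 ± 5.6% of its family. Its share fell to 35.7% in the lowest mouse, and its rlog was 13.46 in WT female 1 and 14.02 in WT male 3, against 14.38 to 14.51 in the other 6. Of all 93 families, the calcium channel alpha-1 subunits had the smallest first share, with Cacna1e (R type) at 21.3 ± 2.4% and Cacna1b (N type) at 17.8 ± 1.1%. Cacnb4 (34.0 ± 3.5%) and Cacnb3 (32.2 ± 3.6%) were not separated. Cacna2d3 held 46.6 ± 4.9% of the alpha-2-delta subunits, and Cacng7 51.0 ± 3.1% of the gamma subunits and their AMPA receptor relatives.

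Potassium channels divided more sharply. Kcnd2, an A-type channel, held 75.7 ± 3.6% of the Kv4 family. Kcnip2, the partner of Kv4 channels, held 52.0 ± 3.4%. Kcna1 led the Kv1 family with 42.9 ± 0.7%, although Kcna2 led it on plain rlog (42.2%). Kcnc1 held 36.0 ± 1.6% of the Kv3 family. Of 15 inward rectifiers the glial Kcnj10 was first with 31.1 ± 2.8% and Kcnj4, which is strong in projection neurons, second with 23.5 ± 3.6%. Kcnk1 held 49.8 ± 1.5% of the tandem pore-domain channels, where Kcnk2 came first on plain rlog, Kcnn3 51.6 ± 3.6% of the SK channels and Kcnt1 69.5 ± 2.2% of the BK channel and its sodium-activated relatives. Hcn2 held 77.5 ± 2.2% of the HCN channels.

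Intracellular and glial channels had some of the largest shares. Itpr1, the IP3 receptor, had a level of 10.30 and 93.9 ± 1.0% of its family, and Ryr3 60.2 ± 3.5% of the ryanodine receptors. Ano3 held 71.4 ± 4.8% of 10 anoctamins and was at 61.3% in the lowest mouse. Aqp4, the water channel of astrocyte endfeet, held 95.4 ± 0.3% of the aquaporins, Panx2 84.9 ± 3.3% of the pannexins and Trpv2 83.4 ± 1.2% of the TRPV channels. Connexins were shared between the astrocytic Gja1 (33.2 ± 0.8%) and the oligodendrocytic Gjc3 (26.8 ± 1.9%). Asic4 and Asic1 held 44.1 ± 4.4% and 37.7 ± 1.7% of the acid-sensing channels and changed order with the longest transcript. Clcn4 (31.4 ± 0.8%) and Clcn6 (25.9 ± 0.9%) led 9 CLC genes, Trpm7 (42.4 ± 2.8%) the TRPM channels and Trpc1 (29.4 ± 3.0%) the TRPC channels. On plain rlog Clcn3 and Trpm3 came first in their families.

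Among peptide precursors a single gene held most of each classical family. Penk made 92.1 ± 1.0% of the opioid precursors, with 90.5% in the lowest mouse and 93.6% in the highest. Pdyn, the dynorphin precursor of D1 neurons, held 7.5 ± 0.9%, Pnoc 0.3 ± 0.2%, and Pomc lay at a mean rlog of 2.98. Tac1, the substance P precursor, held 86.3 ± 5.6% and Tac2, the neurokinin B precursor, 13.6 ± 5.6%. Tac2 was at 23.6% in WT male 3 and 21.1% in WT female 1, and between 8.9% and 13.5% in the other 6. Sst, the somatostatin of interneurons, held 98.8 ± 0.2% against cortistatin, at a level of 11.32. Npy was the one member with a value in its family, at a level of 10.79. Crh held 81.3 ± 1.6% of its family. Vip (58.3 ± 5.3%) was ahead of Adcyap1 in 7 of 8 mice, and Avp (53.9 ± 4.6%) was ahead of Oxt in 7 of 8, both at levels under 6. Of 20 other precursors Nts, neurotensin, was first in all 8 mice with 34.7 ± 4.0%, and Cck followed with 18.6 ± 5.0%, while on plain rlog Apln came first (33.8%).

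The proteins that store and cut peptides ran at high levels. The granin Scg2 had a level of 12.17 and 32.5 ± 3.2% of its group, and Chgb 22.7 ± 2.2%. Pcsk2 held 68.9 ± 2.9% of the prohormone convertases, against 8.7 ± 1.9% for Pcsk1. Bdnf, which reaches the striatum mainly as protein carried in cortical axons, held 49.6 ± 8.4% of the neurotrophins at a mean level of 4.71. Its rlog was 6.45 in WT female 2 and 6.75 in WT female 3, and 7.23 to 7.85 in the other 6. The synaptic organizers Cbln2 (39.2 ± 4.2%) and Cbln4 (37.2 ± 4.9%) were not separated.

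**Figure D3:**
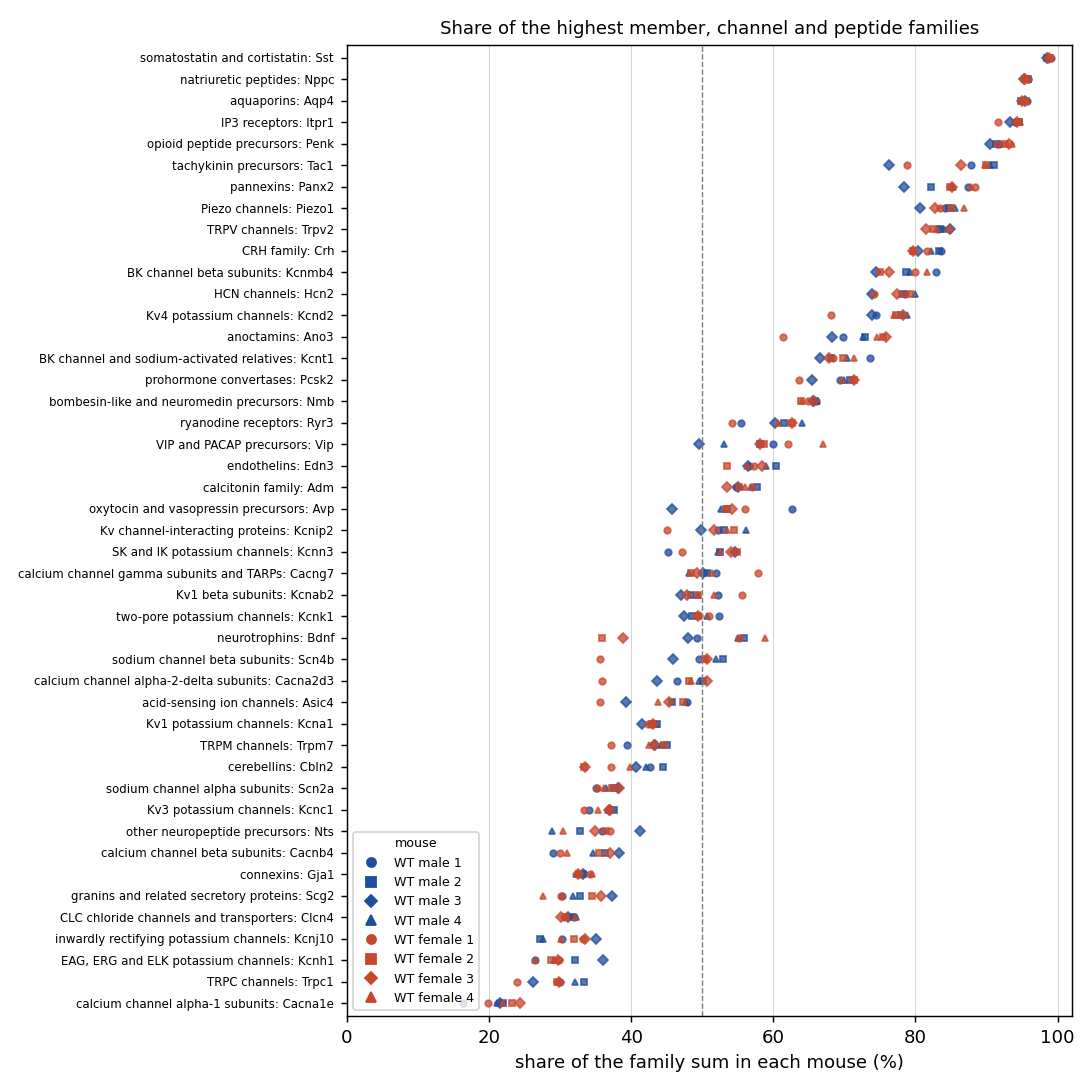
Share of the family sum held by the highest member in 30 of 32 channel and in 15 peptide families (horizontal axis, %), with 1 point per WT mouse (blue males, red females) and a dashed line at 50%. Sst, Nppc, Aqp4, Itpr1 and Penk held over 90% in every mouse, and Cacna1e was lowest with a mean of 21.3%.

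A palindromic CRE was more frequent before the starts of the peptide genes than in the other sets, as a description with no test. Of 51 peptide members with an exonic length that passed the minimum, 40 matched the RefSeq promoter table, and 5 of these (12.5%) held TGACGTCA in the 250 bases before the start. The share was 2.80% for receptor members (4 of 143), 0.813% for channel members (1 of 123) and 2.69% for all genes above the minimum (321 of 11922). The 120 bases directly before the start are shown with the CRE in capitals, because these 5 promoters hold the same letters. Of the granins and convertases with a listed promoter, only Scg2, Chgb and Pcsk1 held the motif. The CRE begins at -48 in Sst (chr16:23890845-23890964, minus strand), -68 in Scg2 (chr1:79440027-79440146, minus strand), -72 in Chgb (chr2:132781522-132781641, plus strand), -78 in Pcsk1 (chr13:75089737-75089856, plus strand) and -112 in Cartpt (chr13:99900684-99900803, minus strand).

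Sst: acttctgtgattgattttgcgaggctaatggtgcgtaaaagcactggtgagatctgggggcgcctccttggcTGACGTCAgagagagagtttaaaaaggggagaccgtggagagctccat
Scg2: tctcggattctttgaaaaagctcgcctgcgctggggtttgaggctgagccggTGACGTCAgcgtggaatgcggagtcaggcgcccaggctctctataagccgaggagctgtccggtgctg
Chgb: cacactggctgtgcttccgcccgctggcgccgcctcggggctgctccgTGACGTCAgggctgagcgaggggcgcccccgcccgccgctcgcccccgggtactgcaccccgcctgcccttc
Pcsk1: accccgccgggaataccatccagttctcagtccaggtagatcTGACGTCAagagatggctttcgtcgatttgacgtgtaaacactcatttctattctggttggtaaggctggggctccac
Cartpt: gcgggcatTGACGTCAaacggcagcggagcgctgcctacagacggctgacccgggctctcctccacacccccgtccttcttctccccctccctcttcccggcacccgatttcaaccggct

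The levels of these 5 genes ranged widely. Mean length-adjusted levels were 12.17 for Scg2, 11.65 for Chgb, 11.32 for Sst, 6.91 for Pcsk1 and 6.63 for Cartpt, against a median of 5.66 over the 51 peptide members.

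Most genes differed little between WT mice. The SD of rlog over the 8 mice had a median of 0.10, a 90th percentile of 0.19 and a 99th percentile of 0.35, and 293 of 15256 genes (1.92%) had an SD over 0.3. The running median of the SD was lowest (0.046) at the lowest means and never above 0.12. Among genes whose mean rlog was 8 or more, the 10 smallest SDs were those of Bace1, Mto1, Tor1aip1, Itgb1, Ubqln1, Galnt11, Dpagt1, Nipal3, Sec24c and Anapc5, between 0.012 and 0.024. Bace1, the beta-secretase of neurons, lay between 10.81 and 10.85 in all 8 mice.

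**Figure D4:**
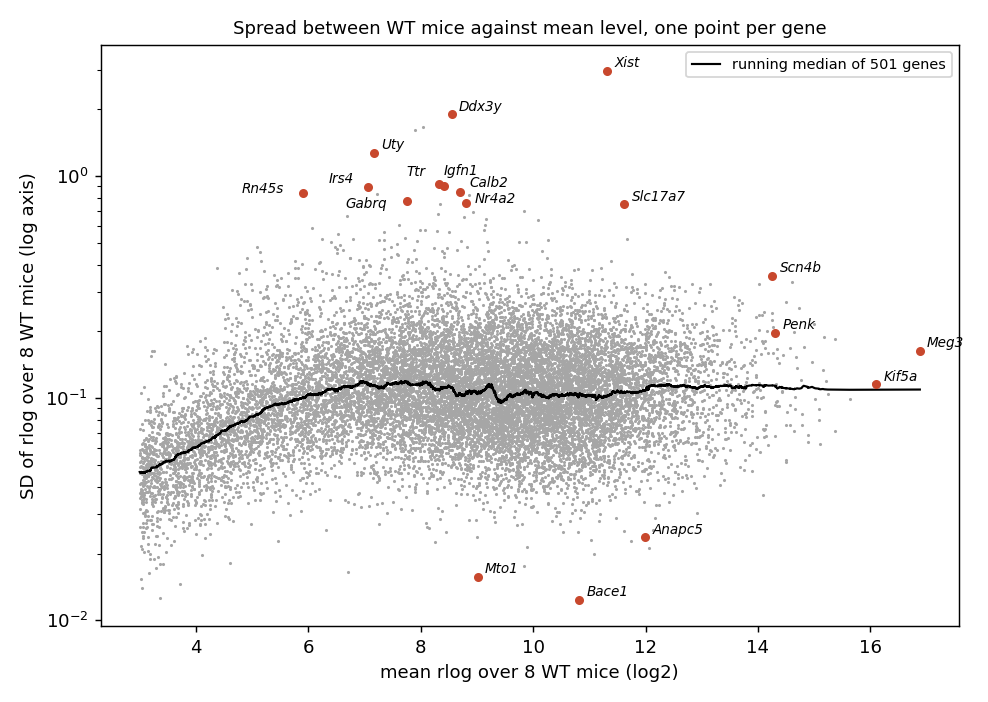
SD of rlog over 8 WT mice (vertical log axis) against mean rlog (horizontal axis), with 1 gray point per gene and a black line for the running median over genes of like mean. Xist (2.98) and the Y-linked genes lay highest, and Bace1 (0.012) lowest among the named genes.

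The 5 largest SDs were those of sex chromosome genes, and they check the labels. Xist, the noncoding RNA of the inactive X chromosome, lay between 13.60 and 14.36 in the 4 females and between 8.51 and 8.56 in the 4 males, and Ddx3y, a Y-linked helicase, between 10.09 and 10.47 in males and 6.71 and 6.90 in females. Eif2s3y, Kdm5d and Uty separated the sexes in the same way. Females have no Y chromosome, yet these 4 genes had values of 5.92 to 6.90 in females. How much of this comes from the pull of rlog toward the gene mean or from reads of similar genes was not tested. Differences between mice may be understated. Xist overlaps an antisense gene, and the strand setting of the counting is not given in the sources used here.

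Beyond these, the most variable genes fell into a few groups of mice. The 25 genes that follow in SD, 1 of them an unnamed transcript, were Ttr, Igfn1, Irs4, Calb2, Rn45s, Prlr, Gabrq, Nr4a2, Slc17a7, Slc30a3, Nrn1, Slc17a6, Igsf1, Ngb, Zic1, Scube1, Baiap3, Magel2, Agt, Sytl4, Tbr1, Gpx3, Arhgap36 and Dgkk, with SDs from 0.93 to 0.56. WT male 3 was highest in 40 of the 100 genes with the largest SDs and in 18.7% of all 15256 genes. WT female 1 was highest in 23 of the 100 and in 14.01% of all genes. WT female 4 was lowest in 27 of the 100 (12.2% of all genes), WT female 2 in 23 (9.26%) and WT male 2 in 20 (9.35%). WT male 3 and WT female 1 were the 2 highest mice together in 52 of these 100, against 7.41% of all 15256 genes.

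The first group was high in WT male 3 and WT female 1. The values of Irs4, an insulin receptor substrate of the hypothalamus, were 9.12 in WT male 3 and 7.56 in WT female 1, and 6.5 to 6.78 in the other 6 mice. Calb2, the calcium buffer calretinin, was at 10.11 and 9.82 in these mice and between 7.89 and 9.02 in the others. Prlr, the prolactin receptor, lay at 8.97 and 7.81 and otherwise between 6.41 and 7.27. The GABA-A theta subunit Gabrq, most variable of the family members, lay at 9.36 and 8.43 and otherwise between 7.13 and 7.73. The transcription factor Zic1 was at 9.58 and 9.82 and otherwise between 8.02 and 9.08. Slc17a6, the vesicular glutamate transporter of thalamus and hypothalamus, Igsf1, Ngb, Baiap3, Magel2, Gpx3, Arhgap36 and Dgkk had the same pair as their 2 highest mice. In the same mice the score of the thalamic and hypothalamic list, the mean over its 11 measured members of rlog minus the WT mean, was 0.42 and 0.50 against -0.28 to 0.18 in the others. Calb2, Zic1 and Slc17a6 belong to this list, and 5 of its 11 members were among the 100 largest SDs. Its score is therefore not separate from these genes. The septum and pallidum score was 0.32 and 0.39 against -0.19 to 0.03. Of its 10 members 3, Zic4, Zic2 and Trpc4, were among the 100 largest SDs, with the same pair highest. This score is therefore not separate from the variable genes either. The score of striatal projection neurons was lowest in WT male 3 and WT female 1, at -0.26 and -0.54 against 0.03 to 0.19. Whether the makeup of the dissected tissue accounts for the spread of these genes was not tested. In bulk tissue fewer cells of a type and less RNA per cell cannot be told apart.

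The second group was low in WT female 2 and, less so, in WT female 3. Slc17a7, the vesicular glutamate transporter of cortical neurons, was at 10.17 in WT female 2, 11.13 in WT female 3 and 11.10 in WT male 3, and between 11.98 and 12.37 in the other 5. Tbr1, a transcription factor of cortical excitatory neurons, was at 8.06 and 8.57 in the 2 females and otherwise between 8.91 and 9.67. Slc30a3, the zinc transporter of glutamate vesicles, was at 6.96 and 7.79, against 7.84 to 9.24 in the others, and Nrn1, an activity-regulated growth protein, at 8.44 and 9.34 against 9.72 to 10.60. Igfn1, Scube1 and Nr4a2 were also lowest in WT female 2. The cortical excitatory score was -0.52 in WT female 2, -0.34 in WT female 3 and -0.26 in WT male 3, and between 0.12 and 0.41 in the other 5. Slc17a7 and Tbr1 belong to its list, and 5 of the 10 members were among the 100 largest SDs. Whether the score accounts for the genes of this group was not tested.

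Other variable genes had their extreme values in a single mouse or in a few mice. Ttr, the thyroid hormone carrier made by choroid plexus, was at 9.74 in WT female 3, 9.35 in WT male 1 and 8.84 in WT male 4, and lowest in WT male 3 at 7.09. The choroid plexus score ranged from -0.14 to 0.26 and was highest in WT female 3, and the defining genes Folr1 (mean rlog 3.73) and Kcne2 (2.99) were near the floor. Rn45s, the ribosomal RNA precursor, was at 7.14 in WT male 4 and 7.35 in WT female 3, against 5.21 to 5.79 in the others. It is a repeated gene, and libraries made from polyadenylated RNA hold it only as a remainder. Agt, the angiotensinogen of astrocytes, was lowest in WT male 2 at 8.00 and lay between 8.70 and 9.83 elsewhere. Sytl4, which codes for granuphilin of secretory granules, was at 7.48 in WT male 3 and between 5.71 and 6.08 elsewhere. Both Agt and Sytl4 also had WT male 3 and WT female 1 as their 2 highest mice. Ependymal genes were highest in WT female 2, with a score of 0.50 against -0.31 to 0.21.

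**Figure D5:**
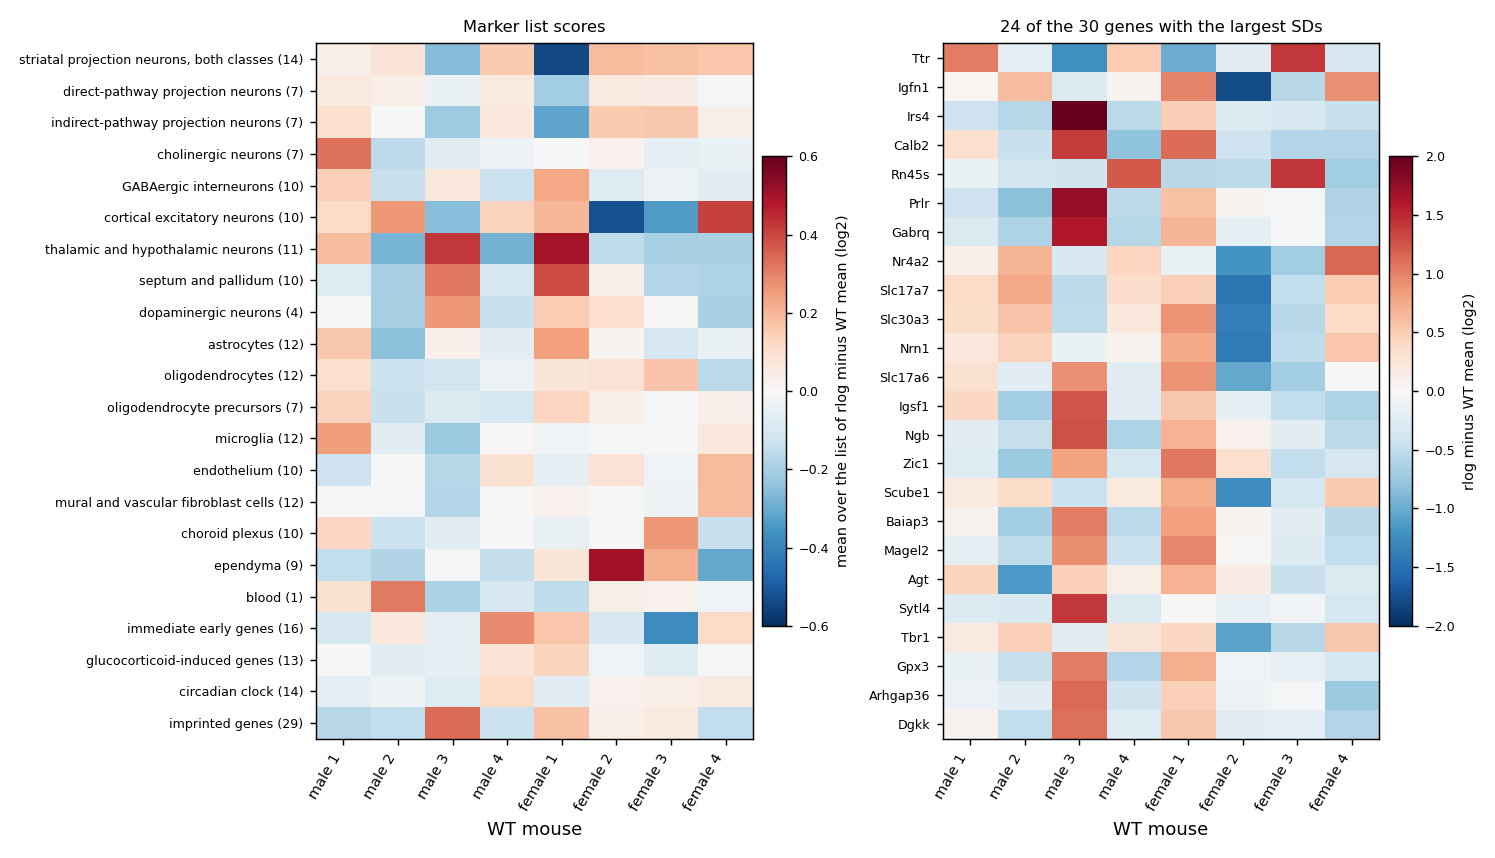
Left, score of each marker list by WT mouse (columns), the mean over the list of rlog minus the WT mean, with the number of genes in brackets. Right, rlog minus the WT mean of 24 of the 30 genes with the largest SDs (the 5 sex chromosome genes and 1 unnamed transcript are left out). Red is above and blue below the mean. Male 3 and female 1 share the red cells of the thalamic and hypothalamic list (0.42 and 0.50), and female 2 holds the deepest blue of the cortical list (-0.52).

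Without WT male 3 and WT female 1 the list of variable genes changed, and 48 of its 100 genes stayed. Igfn1 (SD 0.96), Rn45s (0.93), Nr4a2 (0.88), Slc17a7 (0.83) and Slc30a3 (0.75) then followed the 5 sex chromosome genes. With WT female 2 left out as well, 47 of the 100 stayed, and Rn45s (0.97), Ttr (0.75), Nr4a2 (0.69), Avp (0.62) and Agt (0.61) came next.

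Of the marker lists, those of cortex and of thalamus and hypothalamus had the largest SDs. The median SD over members was 0.17 for the 7 direct-pathway genes, 0.25 for the 7 indirect-pathway genes and 0.28 for the 14 shared genes of projection neurons, against 0.40 for cortical excitatory neurons, 0.37 for thalamic and hypothalamic neurons, 0.23 for septum and pallidum and 0.10 for all genes. It was 0.09 for oligodendrocyte precursors, 0.14 for microglia and 0.16 for oligodendrocytes. The cholinergic score was 0.32 in WT male 1 and between -0.16 and 0.03 in the other 7. Chat, which makes acetylcholine, had a mean rlog of 9.36 ± 0.20. The microglial score was also highest in WT male 1, at 0.25 against -0.22 to 0.07.

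Immediate early genes, which neurons induce within minutes of activity, spread more widely in their score than glucocorticoid-induced and clock genes. An SD above the running median of genes of like mean was found in 16 of 16 immediate early genes, 12 of 13 glucocorticoid-induced genes and 7 of 14 clock genes. Fos, the activity marker, lay at 7.59 in WT female 3, between 8.54 and 9.02 in 6 mice and at 9.28 in WT female 1. Arc, a synaptic activity gene, was at 10.24 in WT female 3 and between 10.94 and 11.45 in the others. The score of the list was -0.38 in WT female 3 and 0.28 in WT male 4. The 13 glucocorticoid-induced genes had scores from -0.07 to 0.14, and the 14 clock genes with scores from -0.08 to 0.11.

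Members of the receptor, channel and peptide families had larger SDs than genes in general. Their median SD was 0.150, against 0.10 over all genes, and 48 of the 403 members with a length that passed the minimum (11.9%) had an SD over 0.3, against 1.92% of all genes. The count was 19 of 187 for receptors, 12 of 165 for channels and 17 of 51 for peptides. Gabrq (0.78), Tac2 (0.56), Bdnf (0.51), the neurotrophin receptor Ngfr (0.50), Avp (0.48) and Pnoc (0.47) were among the largest SDs. Avp was at 6.21 in WT male 1 and between 4.76 and 5.19 in the other 7. Pnoc, the nociceptin precursor, was at 7.20 in WT male 3 and 7.25 in WT female 1, above the range of 6.03 to 6.52 in the others. These are the mice that stood apart, and the part of the marker scores in these values was not tested.

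Sex, the one labelled condition within the WT mice, was tested with limma over 15256 genes. At an adjusted p under 0.05, 38 genes were called (0.249% of those tested), 14 higher and 24 lower in females, and 2065 genes had an unadjusted p under 0.05. Besides the 5 sex chromosome genes above, the ribosomal protein gene Rpl39 on the X chromosome was between 7.70 and 7.77 in the 4 females and between 8.27 and 8.32 in the 4 males. Its difference, female minus male, was -0.56 ± 0.05 (SE, limma adjusted p = 0.00136). Hnrnpa0, an RNA-binding protein gene, lay between 10.20 and 10.27 in females and 10.62 and 10.77 in males (-0.46 ± 0.05, limma adjusted p = 0.00432). Rpl22l1 (-0.54, limma adjusted p = 0.0181), Ndufc1 (-0.51, 0.0303) and Cox5a (-0.41, 0.0343) were also lower in females. Only Ddx3y, Xist, Eif2s3y, Kdm5d, Uty, Rpl39 and Hnrnpa0 were called in each of the 8 fits that left out 1 mouse, and the count then fell to between 7 and 12. It was 10 without WT male 3 and WT female 1 together. Of the 403 family members, limma called 0 between the sexes, against 38 of all 15256 genes. At that share of 0.249%, few or no calls would fall among 403 genes, so the 0 is no result about the members. An unadjusted p under 0.05 was found in 14 of the 403, against 2065 of all 15256. Samples of 1 sex are separate mice, so the p-values measure the spread between mice.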

How the data were processed

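The authors prepared stranded mRNA libraries (Illumina TruSeq) from the ventral striatum of single mice, sequenced them as paired ends of 150 bases, aligned them to UCSC mm10 (GRCm38) with STAR within Illumina RNA-Seq Alignment and counted reads per gene. The deposited values are log2 values from the rlog transform of DESeq2, made by the authors over the samples together and corrected for library size but not for length. They excluded 1 *Fmr1* KO male. Annotation, strand setting and treatment of multiply mapped reads are not given in the sources used here. The depth of each library is unknown, so precision is given by the spread over 8 mice.

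Exonic length was the union of exons in GENCODE M21 (24498 symbols matched by name, 55 through a RefSeq synonym, 429 without a match). Means and SDs were taken over the 8 WT mice, with no test. Female minus male was tested with limma 3.58.1 in R 4.3.3 (mean rlog of 3 or more, variance trend, moderated 2-sided test, Benjamini-Hochberg over all 15256 genes, threshold 0.05) and was tested on simulated data. Other steps used Python 3.11.15, numpy 2.4.6, pandas 2.3.3 and matplotlib 3.10.9. Promoter sequences are from RefSeq (GRCm38.p6). Families, marker lists and alternatives were chosen with earlier results of these data known. The imprinted gene list and the joint removal of WT male 3 and WT female 1, with or without WT female 2, were added after seeing the data.

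Genes were named by rule: the 20 highest by rlog and by length-adjusted level, the 2 highest members of each family, the 30 largest SDs and the 10 smallest where the mean rlog was 8 or more, up to 4 members of each marker list, and the 10 smallest adjusted p for sex. Unnamed transcripts were counted only. Some genes that the rule selects are not reported here, in text or figures, and they stay in all counts and family sums. Family members below the 2 highest, the most variable members and the promoters shown were picked after their values were seen. Alternatives were other lengths, no length adjustment, the median over mice, other minimums, other measures of spread, quantile normalization, centring, no variance trend, a replicate block, sample quality weights, each sex alone and each mouse left out.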

Additional observations from a re-analysis of the deposited data

Results flagged for a closer look

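Values within 1 sex that lay far from the other 3 mice, by Dixon's criterion for 4 samples, were looked for in 44 groups of list scores and 48 groups of gene values. In all 12 were found, 5 in scores and 7 in genes. Chance gives about 1 in 20 groups, but that rate does not apply here. The genes were picked for their large SDs in these mice. The marker lists were chosen with earlier results of these data known, and some of them share members. The imprinted list was drawn up with these values known.

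WT female 1 was set apart in 3 scores. Its striatal projection neuron score was -0.540, against 0.168 to 0.188 in the other females, its thalamic and hypothalamic score 0.50, against -0.201 to -0.152, and its GABAergic interneuron score 0.232, against -0.077 to -0.033. Calb2, a member of both of the last 2 lists, was at 9.82 in WT female 1 and between 8.11 and 8.30 in the other females.

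WT male 3 was set apart in 2 scores and 4 genes. Its imprinted gene score was 0.336, against -0.169 to -0.129 in the other males, and its mural and vascular fibroblast score -0.175, against -0.013 to 0.006. Irs4 was at 9.12 (6.5 to 6.65 in the other males), Prlr at 8.97 (6.41 to 6.81), Gabrq at 9.36 (7.13 to 7.47) and Sytl4 at 7.48 (5.76 to 5.80).

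Rn45s was set apart in both sexes, at 7.14 in WT male 4 (5.52 to 5.79 in the other males) and 7.35 in WT female 3 (5.21 to 5.39 in the other females). No cause was tested for any of these values.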

How the results depend on the processing

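The family results kept the same highest member in 76 to 93 of 93 families under every alternative run, with a member over 50% in every mouse in 46 to 52 and the same leader in every mouse in 75 to 82. Leaving out single mice gave 92 to 93, 46 to 48 and 75 to 78. Of the 100 highest length-adjusted levels, 55 were among the 100 highest on plain rlog, where long transcripts move up, and 85 with the longest transcript as length, with 98 to 100 when single mice were left out. Of the 100 largest SDs, 63 stayed with the median absolute deviation, 48 without WT male 3 and WT female 1, 47 with WT female 2 left out too, and 76 to 94 when single mice were left out.

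The count of 38 genes between the sexes was 799 with sample quality weights, 10 without WT male 3 and WT female 1 and 7 to 12 when single mice were left out. The fits without mice have fewer samples, and for the weights the cause was not tested. With the replicate number as a block the count was 13, and 10 of these were among the 38. Whether the number pairs the mice is not given by the labels. The correlations of same-numbered deviations were 0.37, 0.09, 0.11 and 0.42, and only mice 1 and 4 correlated best with their own number. So few correlations cannot decide whether same-numbered mice shared a cohort or a day of preparation. Of 160 values of the 10 named genes, 0 changed sign and 20 lost the threshold, all of Rpl22l1, Ndufc1 or Cox5a. Depth is unknown, so the lowest levels cannot be bounded.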

Other observations

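Imprinted genes, a list of 30 written after the spread of the data was seen, held 29 members that passed the minimum and 6 of the 100 largest SDs. The median SD of the 29 was 0.21, against 0.10 over all genes, and 24 of the 29 were above the running median of genes of like mean. Peg10 was at 12.53 in WT male 3 and 12.16 in WT female 1, and between 11.02 and 11.89 in the other 6 mice. Dlk1, a noncanonical Notch ligand, was at 10.92 and 10.76 in these mice and between 9.72 and 10.68 in the others. Rian, which is transcribed beside Meg3, had an SD of 0.08 at a mean rlog of 13.72, and Sgce an SD of 0.07 at 9.89. The list score was 0.34 in WT male 3 and 0.17 in WT female 1, and between -0.17 and 0.06 in the other 6, and its relation to the neighboring-region scores was not tested.

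The X chromosome held 10 of the 100 and 3.57% of all 15256 genes, and 4 of the 100 were Y-linked.

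Fmr1, the gene whose loss defines the other mice of the study, had an rlog of 10.78 ± 0.10 in the 8 WT mice, with 10.62 in the lowest and 10.88 in the highest, and a length-adjusted level of 7.61.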
